A study of Mus musculus with 7 samples.

Results

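MHC class II antigen presentation is described here through 10 genes of the 23930 in the deposited mouse table. They were chosen by name, with no measured value in the rule, though with earlier results of these data known. All 10 were found: the chains H2-Aa, H2-Ab1 and H2-Eb1, the invariant chain Cd74, the coactivator Ciita, the peptide-editing genes H2-DMa, H2-DMb1 and H2-DMb2, and their modulators H2-Oa and H2-Ob. The study asked how chronic hypercapnia, a raised level of carbon dioxide, changes the transcripts of muscle satellite cells, the stem cells of skeletal muscle. RNA came from GFP-positive cells sorted from digested hind leg muscles, in 3 libraries of normocapnia, NC1 to NC3, and 4 of hypercapnia, HC1 to HC4.

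All 7 libraries came from littermates with the inducible Pax7-GFP reporter on a C57BL/6 background, and every mouse received tamoxifen. Normocapnia mice breathed room air and hypercapnia mice lived in a chamber at 10% CO2, each for 4 weeks, from 12 weeks of age to collection at 16 weeks. By the methods of the study, leg muscles of both groups had also been injured with cardiotoxin 3 days before the sort, which the sample labels do not mention. The name of the deposited table carries a time in hours. The methods use that time for plated cells in a proliferation assay, and neither source explains it for these libraries. The GFP is switched on by a Cre recombinase under Pax7, so it marks cells that expressed Pax7 during tamoxifen, and their progeny. The labels number the strain upward from C57BL/6 in NC1 to C57BL/12 in HC4, by 1 per sample, while the growth protocol names a single strain. The labels do not say whether each library is a separate mouse, so the p-values below measure the spread between these libraries.

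MHC class II molecules are pairs of an alpha and a beta chain that carry peptides of proteins taken up into endosomes to the surface of antigen-presenting cells, where CD4 T cells read them. Dendritic cells, macrophages and B cells are the main cells that do so, and both dendritic cells and macrophages enter injured muscle. The invariant chain holds the groove closed until the endosome, H2-DM exchanges its remnant for a peptide, and H2-O restrains H2-DM. Ciita does not bind DNA: it docks on the factors RFX, CREB and NF-Y, which sit on short X and Y boxes upstream of each class II gene, and interferon gamma is its best known inducer.

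The X and Y boxes are shown for the members whose promoters hold the Y letters, because they are the feature through which 1 coactivator can reach genes of quite different roles. RefSeq promoters on build GRCm38.p6, running from 250 bases before to 50 bases after the start of a transcript, were given for 7 of the 10 genes, and not for H2-Ab1, Cd74 and Ciita. The capitals mark GNAAC, read here as the X letters, and TGATTGG, the Y letters. The stretch of H2-DMb2 has only the Y letters, and each is written 5′ to 3′ on the strand of the gene.
H2-Aa: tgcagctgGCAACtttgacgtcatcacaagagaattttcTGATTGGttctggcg
H2-Eb1: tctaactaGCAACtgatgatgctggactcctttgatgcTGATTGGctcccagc
H2-DMb1: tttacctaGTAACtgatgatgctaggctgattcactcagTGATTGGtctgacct
H2-DMb2: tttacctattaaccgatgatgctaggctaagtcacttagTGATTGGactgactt
H2-Oa: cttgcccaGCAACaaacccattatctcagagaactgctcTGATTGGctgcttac
H2-Ob: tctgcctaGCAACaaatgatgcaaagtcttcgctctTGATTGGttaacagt
All 6 stretches lie on chromosome 17. They run from 34287859 to 34287912 on the minus strand for H2-Aa and, on the plus strand, from 34305768 to 34305820 for H2-Eb1, 34153089 to 34153142 for H2-DMb1, 34145118 to 34145171 for H2-DMb2, 34092295 to 34092348 for H2-Oa and 34238810 to 34238860 for H2-Ob. The Y letters begin 45 bases before the start in H2-Oa, 50 in H2-Aa, 59 in H2-Ob, 61 in H2-Eb1, 63 in H2-DMb1 and 92 in H2-DMb2, so all of them stand upstream of the annotated transcript.

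On either strand, the Y letters occur in the promoters of 6 of the 7 genes, H2-DMa being without them, and in 7.82% of all 32851 RefSeq promoters of that length. The X letters alone are common: all 7 genes and 84.8% of all promoters hold them. X letters followed by Y letters after 15 to 35 bases occur in 5 of the 7 genes (H2-Aa, H2-Eb1, H2-DMb1, H2-Oa and H2-Ob) and in 0.569% of all promoters, 187 in number. The spacing between them is 26 bases in H2-Aa, H2-DMb1 and H2-Oa, 25 in H2-Eb1 and 23 in H2-Ob. The letters and the spacing were set after these promoters had been read, so the shares describe them and test nothing. The genes with both sets of letters include chains, an editing gene and both modulators, and their RNA did not all follow one pattern across the libraries, as described next.

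Values are RPM, reads scaled to the total of their library, from an AmpliSeq panel that amplifies a short stretch of each gene. A value therefore compares a gene between libraries, not genes with each other, and all levels below are on that scale. Whole reads could be recovered from the values, and library totals were between 14527445 and 23388710 reads. A single read was worth 0.0428 to 0.0688 RPM. NC3 stood apart from the others: its 10 most abundant genes took 16.6% of reads (8.4% to 12.1% elsewhere), it had the fewest genes at 1 RPM or more, 10619, and its median-of-ratios factor was 0.689 where the others ran from 0.959 to 1.25. Fold changes are hypercapnia over normocapnia on the log2(RPM + 1) scale, with limma's standard error (SE).

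H2-Aa, the alpha chain of the I-A molecule, stood at 1843, 390.4 and 424 RPM in NC1 to NC3 and at 152, 213, 1048 and 925 RPM in HC1 to HC4. H2-Ab1, the beta chain that pairs with it, stood at 841, 219 and 139 RPM in normocapnia and at 80.6, 110.3, 385 and 395 RPM in hypercapnia. In both genes NC1 was the highest library, HC3 and HC4 came next, and HC1 and HC2 were the lowest, so each group held high and low libraries and the groups overlapped. The mean of H2-Aa was 886 ± 829 RPM in normocapnia (SD, n = 3) and 585 ± 468 RPM in hypercapnia (SD, n = 4), a log2 fold change of -0.68 (SE 0.99). For H2-Ab1 the means were 400 ± 384 and 243 ± 170 RPM, a log2 fold change of -0.62 (SE 0.91). Both SEs exceeded the difference they belong to.

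H2-Eb1, the beta chain of the I-E molecule, stood at 919, 369 and 114 RPM in NC1 to NC3 and at 129, 209, 840.1 and 746 RPM in HC1 to HC4. Here NC3 joined HC1 at the bottom of the order, and the group means of 467 ± 411 and 481 ± 364 RPM almost coincided (log2 fold change 0.09, SE 1.02). The alpha chain that would pair with it was represented by H2-Ea-ps, the pseudogene entry, which was at 0 reads in all 7 libraries. H2-Ea itself is not analysed here. C57BL/6 mice are known to lack a working H2-Ea gene, so their H2-Eb1 chain has no I-E partner. A further beta chain, H2-Eb2, stayed between 0 and 0.625 RPM, and 3 reads, taken as the floor, are worth 0.128 to 0.207 RPM here.

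Cd74, the invariant chain that escorts new class II molecules to the endosome, stood at 5902, 2029 and 2329 RPM in NC1 to NC3 and at 903, 1235, 5084 and 4619 RPM in HC1 to HC4. The order was again NC1, HC3 and HC4 at the top and HC1 and HC2 at the bottom, with NC2 and NC3 between them. The means of 3420 ± 2155 and 2960 ± 2196 RPM differed by much less than either SD (log2 fold change -0.42, SE 0.82). Within hypercapnia alone the highest library had 5.63 times the value of the lowest, against 2.91 times within normocapnia.

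**Figure D1:**
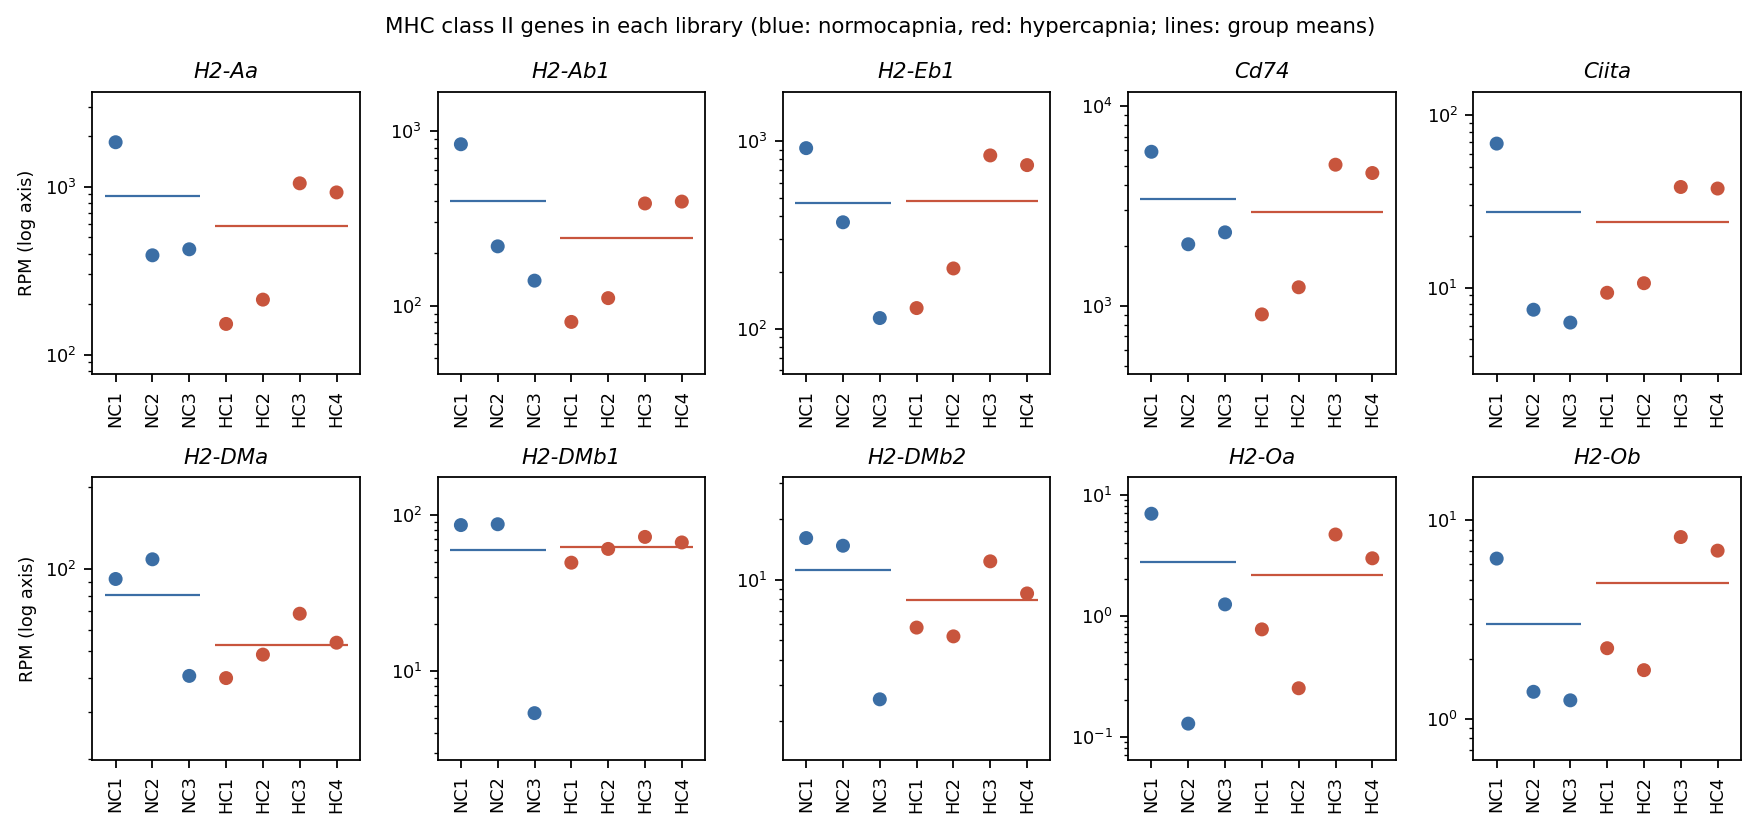
RPM (log axis, scaled per gene) of the 10 class II genes in each library, with normocapnia in blue, hypercapnia in red and a line at each group's mean. In H2-Aa, H2-Ab1, H2-Eb1, Cd74, Ciita, H2-Oa and H2-Ob the 3 highest libraries are NC1, HC3 and HC4, and in the DM genes (H2-DMa, H2-DMb1, H2-DMb2) they are NC1, NC2 and HC3.

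Ciita, the coactivator that drives this set of genes, stood at 68.5, 7.44 and 6.26 RPM in NC1 to NC3 and at 9.33, 10.6, 38.4 and 37.6 RPM in HC1 to HC4. NC1 was far above the other normocapnia libraries, HC3 and HC4 were alike, and NC2, NC3, HC1 and HC2 lay close to each other. The highest normocapnia library had 10.9 times the value of the lowest. The means of 27.4 ± 35.6 and 24.0 ± 16.2 RPM gave a log2 fold change of 0.35 (SE 1.03): the mean of the log values was higher in hypercapnia while the mean RPM was lower.

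The DM genes kept another order. H2-DMa, the alpha chain of the peptide editor, stood at 92.0, 109 and 40.5 RPM in NC1 to NC3 and at 39.8, 48.5, 68.6 and 53.7 RPM in HC1 to HC4. NC2, low for Ciita, was the highest library here, NC1 the next, and NC3 was among the lowest. The means were 80.4 ± 35.5 and 52.7 ± 12.1 RPM (log2 fold change -0.51, SE 0.39, unadjusted p 0.24), the only difference among the members that exceeded its SE.

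H2-DMb1, a beta chain of the editor, stood at 86.5, 87.6 and 5.37 RPM in NC1 to NC3 and at 49.6, 60.8, 72.6 and 66.9 RPM in HC1 to HC4. H2-DMb2, its close copy, stood at 16.1, 14.7 and 2.55 RPM in normocapnia and at 5.78, 5.23, 12.3 and 8.53 RPM in hypercapnia. For both, NC1 and NC2 were above all 4 hypercapnia libraries and NC3 was below all of them. The means of H2-DMb1 were 59.8 ± 47.1 and 62.5 ± 9.84 RPM (log2 fold change 0.78, SE 1.01) and those of H2-DMb2 were 11.1 ± 7.44 and 7.96 ± 3.24 RPM (log2 fold change -0.20, SE 0.65). The beta chains are near-identical neighbours, so how reads were divided between them is uncertain.

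H2-Oa and H2-Ob, the chains of the DM modulator that B cells and some dendritic cells make, rest on the fewest reads. H2-Oa stood at 6.96, 0.128 and 1.24 RPM in NC1 to NC3 and at 0.77, 0.251, 4.69 and 2.98 RPM in HC1 to HC4, which rest on 156, 3 and 18 reads and on 18, 5, 75 and 44 reads. H2-Ob stood at 6.42, 1.37 and 1.24 RPM in normocapnia and at 2.27, 1.76, 8.25 and 7.04 RPM in hypercapnia, on 18 to 144 reads a library. Both shared with Ciita the 3 highest libraries, NC1, HC3 and HC4, though not the order among the 7, and NC2 was at the floor for H2-Oa. The log2 fold changes were -0.03 (SE 0.87) for H2-Oa and 0.58 (SE 0.67) for H2-Ob.

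Genes were called changed where limma gave an unadjusted p under 0.05 together with a fold change above 1.5, the thresholds of the study. Of the 10 class II genes, 0 were called higher and 0 lower, and 0 had an unadjusted p under 0.05. Over all 23930 genes, 1.43% were called higher and 1.14% lower, and over the 12504 genes that averaged at least 1 RPM, the class to which all 10 members belong, 2.66% and 2.1%. With limma's p adjusted by Benjamini-Hochberg across the whole table, 0 genes passed 0.05, with 1114 at an unadjusted p under 0.05, and the members' adjusted p ran from 0.915 to 1. On whole reads, edgeR's quasi-likelihood test also called 0 members, with 0 at an unadjusted p under 0.05, and DESeq2 called 1, H2-DMa, as lower (log2 fold change -0.70, unadjusted p 0.0387, adjusted p 0.509).

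These tests leave large differences possible. The 95% interval of the log2 fold change ran from -3.15 to 1.80 for H2-Aa, from -2.47 to 1.62 for Cd74 and from -2.22 to 2.92 for Ciita. The narrowest was that of H2-DMa, from -1.48 to 0.46. The groups overlapped in all 10 members, where 4.09% of the genes at 1 RPM or more had every hypercapnia library above every normocapnia library and 3.63% had every one below. Of the members, 4 had a log2 fold change above 0 and 6 below, with a median of -0.12. Over the genes at 1 RPM or more that median was 0.16 on the values as deposited and 0.05 with median-of-ratios scaling.

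The sign turned when a single library was left out in all members but H2-DMa and H2-Ob. Without NC1, H2-Aa (0.05), H2-Ab1 (0.14) and Cd74 (0.06) had log2 fold changes above 0, and Ciita reached 1.40. Ciita and H2-Ob then stood higher in every hypercapnia library than in NC2 and NC3, where 29.0% of all genes at 1 RPM or more were apart in either direction. Without NC3, all 3 DM genes stood lower in every hypercapnia library than in NC1 and NC2, against 16.1% of all genes apart in either direction. In that fit H2-DMa was called lower (log2 fold change -0.94, unadjusted p 0.0131, adjusted p 0.455), and H2-DMb1, at -0.49 (unadjusted p 0.0365), did not pass the fold threshold. Without NC2, H2-DMa fell back to -0.24 (unadjusted p 0.584).

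**Figure D2:**
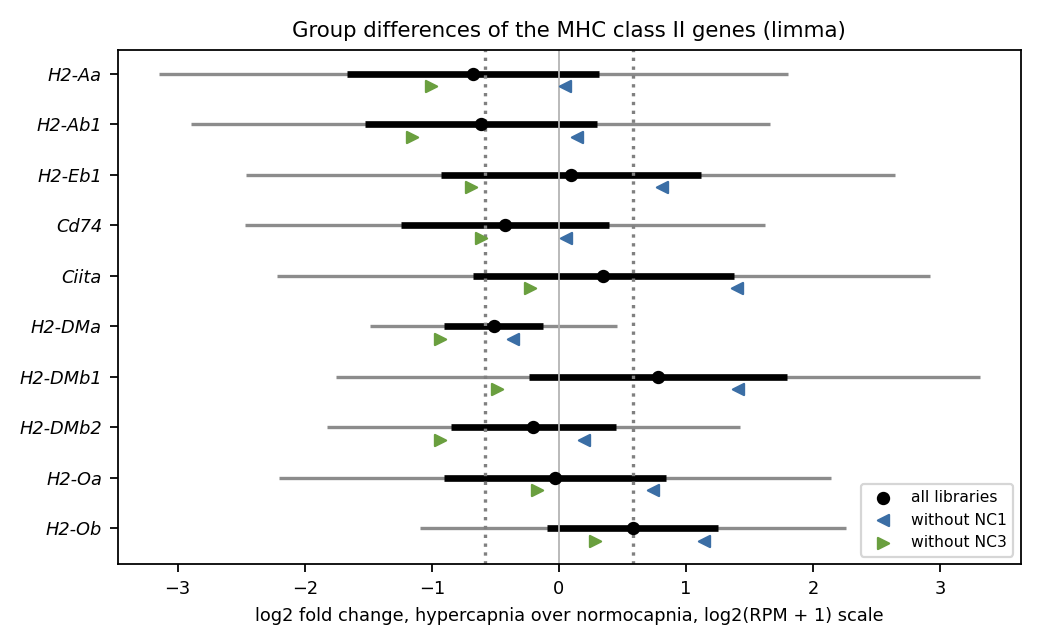
Log2 fold change of each class II gene on the log2(RPM + 1) scale, hypercapnia over normocapnia, with the SE as a thick bar and the 95% interval as a thin grey bar; triangles give the value without NC1 (blue) or without NC3 (green), and dotted lines the 1.5-fold threshold. All 10 intervals cross 0, and 8 of the 10 genes change sign when NC1 or NC3 is left out.

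The spread within groups was large for most members. On the log2(RPM + 1) scale the SD of Cd74 among the 4 hypercapnia libraries was 1.28, and 96.0% of genes at 1 RPM or more had a smaller one. For H2-Aa it was 1.43 (98.0%) and for H2-Eb1 1.34 (96.8%). The editing genes were lower, with an SD in hypercapnia of 0.32 for H2-DMa, 0.23 for H2-DMb1 and 0.50 for H2-DMb2, beside a median of 0.29 over all these genes. In normocapnia H2-DMb1 had the largest SD of the members, 2.19, which rests on the low value in NC3.

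Ratios within a library show which members kept step. H2-Aa and H2-Ab1, whose proteins pair, had a ratio of H2-Ab1 to H2-Aa of 0.456, 0.560 and 0.328 in NC1 to NC3 and of 0.530, 0.519, 0.367 and 0.426 in HC1 to HC4. The highest of these ratios was 1.71 times the lowest, although H2-Aa itself varied from 152 to 1843 RPM. Cd74 over H2-Aa lay between 3.20 in NC1 and 5.93 in HC1, 1.85 times apart. Both ratios overlapped between the groups.

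Other pairs kept step less closely. The ratio of H2-Eb1 to H2-Aa was 0.499, 0.946 and 0.269 in normocapnia against 0.846, 0.986, 0.801 and 0.806 in hypercapnia, so that the hypercapnia libraries were alike and the normocapnia libraries were not. H2-DMb1 over H2-DMa was 0.940, 0.806 and 0.132 in normocapnia and 1.25, 1.25, 1.06 and 1.25 in hypercapnia, and here every hypercapnia library was above every normocapnia library. Cd74 over Ciita was 86.1, 273 and 372 in normocapnia and 96.8, 116, 133 and 123 in hypercapnia. No test was run on these ratios, and NC3 holds the extreme value in all 3.

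Ptprc, the pan-leukocyte gene Cd45, was close to level across libraries, at 173, 208 and 150.0 RPM in NC1 to NC3 and at 196, 185, 209 and 170.1 RPM in HC1 to HC4. Other leukocyte markers were not as level, the highest library having 1.72 times the value of the lowest for Cd52, 2.57 times for Cd53, 5.08 times for Laptm5 and 12.2 times for Coro1a, with NC3 the lowest for Coro1a and the highest for Laptm5 and Cd53. Dividing by a gene as level as Ptprc takes little spread away, so the ratios to it are given as values only. Cd74 over Ptprc was 34.2, 9.76 and 15.5 in normocapnia and 4.60, 6.67, 24.4 and 27.1 in hypercapnia, a range of 7.43 times. H2-Aa over Ptprc was 10.7, 1.88 and 2.83 in normocapnia and 0.775, 1.15, 5.03 and 5.44 in hypercapnia, a range of 13.8 times. In both ratios HC1 and HC2 were below all normocapnia libraries, and HC3 and HC4 were above NC2 and NC3.

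**Figure D3:**
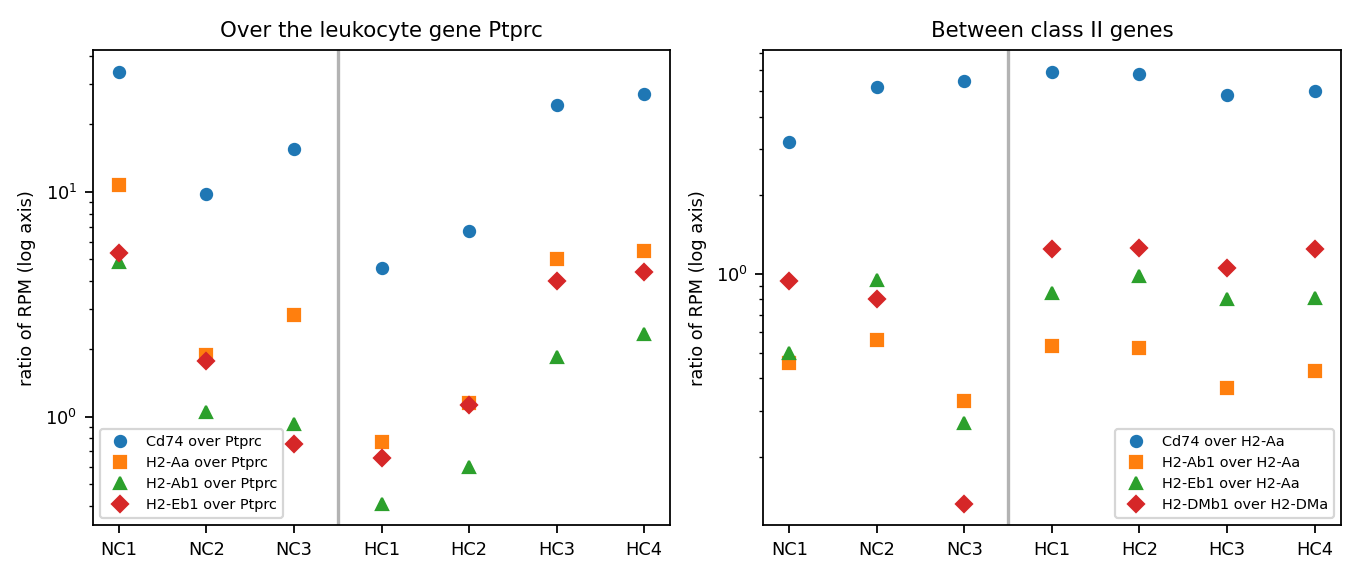
Ratios of RPM within each library on a log axis, class II genes over the leukocyte gene Ptprc on the left and between class II genes on the right. On the left Cd74 over Ptprc runs from 4.60 in HC1 to 34.2 in NC1 with the groups mixed, and on the right Cd74 over H2-Aa stays between 3.20 and 5.93 while H2-DMb1 over H2-DMa drops to 0.132 in NC3.

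Likeness between members was taken as Pearson's r of log2(RPM + 1) over the 7 libraries, a description without a p, in which all points share the same libraries and their cell makeup. Cd74 was closest to H2-Aa (0.989) and H2-Ab1 (0.947), and H2-Aa and H2-Ab1 reached 0.977 with each other. Ciita was closest to H2-Ob (0.948) and H2-Oa (0.911), above its value with Cd74 (0.827). Among the DM genes, H2-DMb2 reached 0.894 with H2-DMa and 0.843 with H2-DMb1. Pairs of a DM gene with another member ran from 0.173 (H2-DMb1 with H2-Oa) to 0.832 (H2-DMb2 with H2-Eb1), and Cd74 had 0.499 with H2-DMa, 0.543 with H2-DMb2 and 0.199 with H2-DMb1.

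Among the 8222 genes that averaged at least 10 RPM, those most like Cd74 outside the set were Hes1 (0.984), Cyp2d22 (0.982), Vamp2 (0.977), Abca8a (0.975), Col4a1 (0.974) and Pde3a (0.974). Col4a1 encodes a basement membrane collagen, and Hes1 is a target of Notch signaling. Those most like Ciita included Jph1 and Glis2 (each 0.996), Ephx1 and Zfp9 (each 0.995) and Dpysl3 (0.994). Jph1 encodes a junction protein of muscle. Such values were not rare in these 7 libraries, since the gene in place 100 still reached 0.919 for Cd74 and 0.967 for Ciita.

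Markers of the cells that the sort could hold moved with the class II genes in part. In a bulk library, fewer cells of a type and less RNA per cell cannot be told apart. The 9 satellite cell markers summed to 2964, 220.4 and 98.5 RPM in NC1 to NC3 and to 432, 409, 1144 and 929 RPM in HC1 to HC4, highest in the same 3 libraries as Cd74. Pax7, the gene that drives the reporter, was at 268, 8.25 and 4.34 RPM in normocapnia and at 21.5, 20.1, 79.5 and 59.6 RPM in hypercapnia. The 8 endothelial markers summed to 231, 112 and 99.95 RPM in normocapnia and to 64.2, 52.7, 558 and 424 RPM in hypercapnia, and the 8 fibro-adipogenic markers, genes of muscle's connective tissue cells, to 3062, 1574 and 1172 RPM and to 1315, 1139, 2323 and 2766 RPM. Both were also highest in NC1, HC3 and HC4. Gene by gene, 9 of 9 satellite, 7 of 8 endothelial and 3 of 8 fibro-adipogenic markers had these as their 3 highest libraries, as did 7 of the 10 class II genes and 24.7% of all 12504 genes at 1 RPM or more. Their part in the class II values was not tested.

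The cells known to present antigen moved differently from one another. The 12 macrophage markers summed to 12297, 23450.0 and 35046 RPM in normocapnia and to 25062, 21660, 20132 and 20506 RPM in hypercapnia, lowest in NC1, where 7 of the 10 class II genes were highest. Lyz2 made up most of these sums, and Adgre1, the F4/80 antigen, was called higher (log2 fold change 1.31, SE 0.49, unadjusted p 0.0403, adjusted p 0.915), at 109, 149 and 70.5 RPM in normocapnia and at 392, 429, 151 and 184 RPM in hypercapnia. Lyz2, the most abundant of them, was between 8354 and 29108 RPM, so the labelled stem cell fraction held abundant macrophage transcripts in all 7 libraries. None of the 12 had NC1, HC3 and HC4 as its 3 highest libraries, and of the complement genes among them C1qb was between 158 and 1061 RPM, C1qc between 0.069 and 16.0 RPM and C1qa between 0 and 0.452 RPM. The 11 dendritic cell markers summed to 423, 241 and 173 RPM in normocapnia and to 237, 228, 295 and 378 RPM in hypercapnia, highest in NC1, HC4 and HC3, the same 3 libraries as for Cd74.

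Of the dendritic markers, 6 of 11 had the same 3 highest libraries as Cd74: Flt3, Zbtb46, Xcr1, Clec9a, Ccr7 and Itgae. The 2 most abundant, Clec10a and Itgax, did not. Clec9a, a receptor for dead cells on cross-presenting dendritic cells, was at 38.7, 2.18 and 2.41 RPM in NC1 to NC3 and at 3.04, 4.02, 12.7 and 14.1 RPM in HC1 to HC4. Xcr1, a chemokine receptor of the same cells, was at 20.7, 0.556 and 2.55 RPM in normocapnia and at 1.28, 1.16, 5.06 and 5.89 RPM in hypercapnia. The growth factor receptor Flt3 (0.551 to 5.58 RPM) and the transcription factor Zbtb46 (1.16 to 13.2 RPM) were also highest in NC1, HC3 and HC4. Clec10a was between 57.3 and 163 RPM with its lowest value in NC1, and Itgax between 33.0 and 216 RPM. Batf3, a factor of the same cross-presenting cells as Clec9a, was between 0.207 and 4.27 RPM and highest in HC2 and NC2, and Cd209a (1.80 to 27.4 RPM) and Siglech (1.54 to 33.6 RPM) were highest in HC3 and HC4 with NC1 below NC3. Adgre1, Batf3, Cd209a, Siglech and the 6 genes were picked out after their values had been seen, and their part in the class II values was not tested.

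The 8 B cell markers in the table summed to 9.71 to 21.6 RPM in normocapnia and to 12.7 to 16.0 RPM in hypercapnia. The 7 T cell markers summed to 2.10 to 7.23 RPM in normocapnia and to 4.43 to 14.7 RPM in hypercapnia. The 5 monocyte markers summed to 1838 to 5466 RPM and to 1849 to 3130.0 RPM, highest in NC2, the 7 neutrophil markers to 82.1 to 227 RPM and to 105 to 329 RPM, and the 5 leukocyte markers to 2473 to 8531 RPM and to 2984 to 3946 RPM. Beside Adgre1, 1 of 12 macrophage markers, the calls were 1 of 5 monocyte markers, Plac8 (log2 fold change 2.47, SE 0.73, adjusted p 0.909), 1 of 7 T cell markers, Cd28 (1.35, SE 0.53, adjusted p 0.915), and 1 of 7 neutrophil markers, Mmp8 (1.25, SE 0.30, adjusted p 0.809), all higher. The other markers of the 10 lists were not called, where 2.66% of all genes at 1 RPM or more were called higher and 2.1% lower. The same 3 highest libraries as for Cd74 were found in 5 of 7 neutrophil, 3 of 7 T cell and none of the B cell, monocyte and leukocyte markers.

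**Figure D4:**
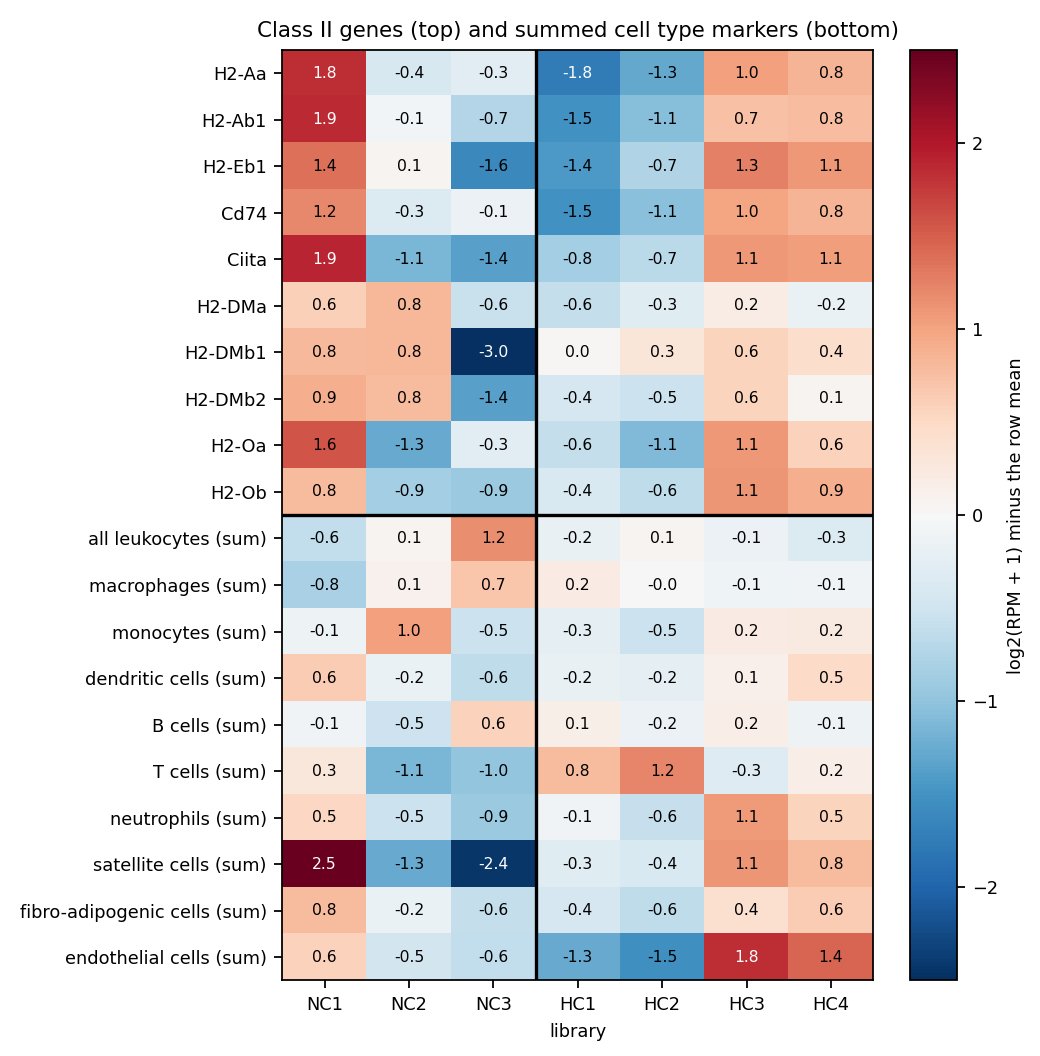
Heat map of log2(RPM + 1) minus its mean over the 7 libraries for each class II gene (top) and for the summed RPM of each marker list (bottom), with columns for the libraries and the value printed in each cell. NC1, HC3 and HC4 are red and HC1 and HC2 blue for H2-Aa, H2-Ab1, H2-Eb1, Cd74 and Ciita and for the satellite and endothelial sums, while the macrophage sum is lowest in NC1 and highest in NC3.

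The other genes of the pathway were taken from 8 lists with 60 genes, of which 54 were in the table and 47 had a mean of at least 1 RPM. Limma called 3 higher, all at 1 RPM or more, and 0 lower, beside 2.66% and 2.1% of all genes at that level, with 0 past adjustment. The proteases Ctsd and Ctsb of the endosome and the chaperone Calr were the genes called. Of the 47, 4 stood higher in every hypercapnia library and 3 lower in every one, beside 4.09% and 3.63% of all genes. Ctsb and Ctsd were each called under 16 of 17 alternatives and Calr under 6, its call being lost among others without NC1, NC2, HC1 or HC3.

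Factors on the X and Y boxes, 6 genes in the table, had 0 calls and a median log2 fold change of -0.20, which was -0.05 without NC2 and -0.42 both in DESeq2 and with quantile normalization. Creb1, which binds beside the X box, stood at 40.4, 44.4 and 35.5 RPM in NC1 to NC3 and at 32.3, 29.4, 29.8 and 27.2 RPM in HC1 to HC4. All 4 hypercapnia libraries were below normocapnia, and the log2 fold change of -0.42 (SE 0.09, unadjusted p 0.00466, adjusted p 0.729) was under the fold threshold. Rfxap, a subunit of RFX, was likewise below in all 4, at 18.4 to 23.4 RPM against 24.0 to 31.8 RPM (log2 fold change -0.36, SE 0.14). The NF-Y subunits had log2 fold changes of 0.25 (SE 0.26) for Nfya and -0.64 (SE 0.42) for Nfyb. Nfyb was called lower in 3 of 17 alternatives: DESeq2, edgeR without a filter and leaving out NC2. Creb1 was called lower in 1, DESeq2, and Rfx5, another subunit of RFX, higher in 1, leaving out NC1.

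Interferon gamma and its route to Ciita gave 7 genes in the table and 0 calls. Ifngr1, the ligand-binding receptor chain, stood at 348, 516 and 1038 RPM in NC1 to NC3 and at 251, 228, 323 and 356 RPM in HC1 to HC4. Its highest values were in NC2 and NC3, where Ciita was low, and HC4 overlapped NC1 (log2 fold change -1.0, SE 0.40, unadjusted p 0.0512). It was called lower under 6 of 17 alternatives, which were the filter at 1 RPM, the prior that follows the mean, edgeR with and without a filter, DESeq2 and leaving out NC1. Jak2, a kinase of the interferon gamma receptor, had a log2 fold change of -0.54 (SE 0.24), and Ifngr2 and Jak1 had -0.41 (SE 0.29) and 0.11 (SE 0.20). Irf8, a transcription factor of myeloid cells, was between 44.4 and 396 RPM (log2 fold change 0.86, SE 0.78).

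Endosomal processing, with 9 genes, had 2 calls, both higher. Ctsd, an aspartic protease, stood at 3006 to 5772 RPM in normocapnia and at 9468 to 17379 RPM in hypercapnia, and Ctsb, a cysteine protease, at 2030 to 5768 RPM and 7799 to 12103 RPM. In both, HC1 and HC2, the libraries lowest for Cd74, had the highest values, as they did for the macrophage marker Adgre1, whose part in these values was not tested. Ifi30, a reductase that opens disulfide bonds of antigens, had a log2 fold change of 0.49 (SE 0.18, unadjusted p 0.0388), under the fold threshold. Ctsl, another cysteine protease, ranged from 980.0 to 9997 RPM in normocapnia and from 1459 to 2630 RPM in hypercapnia, and its log2 fold change was -0.61 (SE 0.81).

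**Figure D5:**
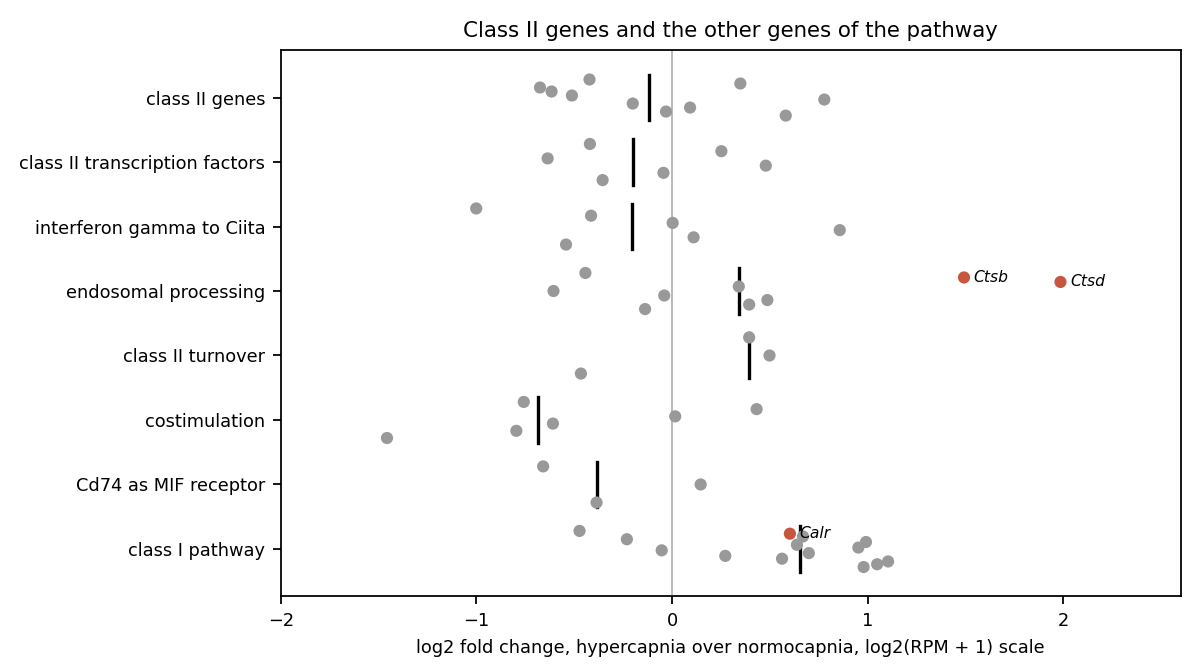
Log2 fold change, hypercapnia over normocapnia, on the log2(RPM + 1) scale for the class II genes and the other genes of the pathway that averaged at least 1 RPM, one point per gene, with genes called by limma in red and the median of each list as a black line. Ctsb, Ctsd and Calr are the called genes, and the class II genes spread from -0.68 to 0.78 around a median of -0.12.

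Turnover of class II at the surface gave 0 calls among 4 genes. March8, a ubiquitin ligase, had a log2 fold change of -0.47 (SE 0.19), Cd83, which shields class II from ubiquitin ligases, 0.39 (SE 0.64), and the cytokine Il10, an inducer of such ligases, 0.50 (SE 1.02). March1 was among the 2443 genes at 0 reads in all 7 libraries. On a panel with 1 amplicon per gene, absent RNA and an amplicon that failed cannot be told apart. Costimulation, the second signal to T cells, gave 0 calls among 9 genes and a median of -0.68 over the 6 at 1 RPM or more, which was -0.27 without NC2, -0.25 without NC3 and -1.03 without NC1, and -1.24 in DESeq2 and -1.18 in edgeR with a filter. Under the 17 alternatives, Tnfsf9 was called lower in 4 and Icosl, Cd86 and Cd274 in 3 each, DESeq2 and edgeR without a filter among them. Pdcd1lg2 was called lower and Cd40 higher in 1 each.

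Of the 6 costimulatory genes at 1 RPM or more, Icosl was the one whose groups did not overlap, beside 3.63% of all genes at that level that were lower in every hypercapnia library. It stood at 24.8 to 62.4 RPM in normocapnia and 15.8 to 24.1 RPM in hypercapnia (log2 fold change -0.80, SE 0.37). NC2 was just above HC4, and the highest value was in NC3. Cd86, the B7 ligand of Cd28, stood at 44.2, 84.3 and 174 RPM in NC1 to NC3 and at 52.6, 52.0, 64.0 and 58.3 RPM in HC1 to HC4, with NC1 the lowest of all. Tnfsf9 had a log2 fold change of -1.46 (SE 0.93), Cd274 of -0.76 (SE 0.63), Pdcd1lg2, at under 1 RPM and with groups that did not overlap either, of -0.33 (SE 0.12), and Cd80 of 0.02 (SE 0.30). In NC2 and NC3, Cd86, Cd274 and Tnfsf9 were higher than in NC1, the reverse of Ciita.

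Cd74 also serves as a receptor for the cytokine MIF, with Cd44, Cxcr4 and Cxcr2 as partners. These 3 genes gave 0 calls, with log2 fold changes of -0.66 (SE 0.33) for Cd44, -0.39 (SE 0.16) for Cxcr4 and 0.15 for Cxcr2. Cd44 was highest in NC3, at 3267 RPM, against 1109 to 1554 RPM in hypercapnia.

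The class I pathway, which shows peptides of a cell's own proteins to CD8 T cells, stood beside these as the other arm of antigen presentation. Of its 14 genes 1 was called higher, Calr, and 0 lower, 11 had a log2 fold change above 0, and the median was 0.65, beside 0.16 over all genes at 1 RPM or more. Without NC3 that median was 0.27, with 13 genes above 0, and the median of all those genes was -0.07. H2-D1, another class I heavy chain, stood at 1055, 1455 and 217 RPM in NC1 to NC3 and at 1133 to 1720 RPM in hypercapnia. Calr, a chaperone that folds class I in the endoplasmic reticulum, stood at 813 to 1331 RPM in normocapnia and 1335 to 1652 RPM in hypercapnia (log2 fold change 0.60, SE 0.20, unadjusted p 0.0239, adjusted p 0.915). Canx, another such chaperone, also had groups that did not overlap (0.67, SE 0.30). Nlrc5, the relative of Ciita that drives class I genes, stood at 13.6, 28.4 and 7.23 RPM in NC1 to NC3 and at 34.7, 38.7, 24.7 and 19.7 RPM in HC1 to HC4, highest in HC1 and HC2, where Ciita was low (0.95, SE 0.49). H2-K1, a class I heavy chain, had a log2 fold change of 0.64 (SE 0.37), and its light chain B2m one of -0.47 (SE 0.57). Whether the class I and class II genes differed in their response was not tested.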

How the data were processed

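Bulk RNA of sorted Pax7-GFP cells was read in 3 normocapnia and 4 hypercapnia libraries, grouped by the sample labels. The authors made AmpliSeq libraries on an Ion Chef, and the deposited table holds RPM for 1 amplicon per gene; per the labels the Transcriptome Analysis Console was used, and the aligner, the genome build and whether strand was used are not given in the sources. Whole reads were recovered with a tolerance of 0.05 reads, met by 100% of values, which gave totals of 14527445 to 23388710 reads; 3 reads, the floor taken here, are worth 0.128 to 0.207 RPM, a floor that covers counting error only.

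The 10 genes and the lists were chosen with earlier results of these data known. Limma 3.58.1 in R 4.3.3 was fitted on log2(RPM + 1) to all 23930 genes, with neither filter nor covariate; checks on simulated data used the same steps. Alternatives were pseudocounts of 0.1 and 5 RPM, a minimum mean of 1 RPM, quantile normalization, median-of-ratios scaling, a variance prior that follows the mean, edgeR 4.0.16 and DESeq2 1.42.0 on whole reads, each library left out, and the replicate number as a block. Genes named were all members, every gene of pathway lists of 5 or fewer, the 3 most abundant and 3 of smallest p of longer ones, the 2 most abundant of marker lists, and the 6 genes most like Cd74 and Ciita. An item that this rule names is left out of the text. H2-Ea, Nfyc, Socs1, Mif, Ddt, Ly6c2, Chil3, Cd79a and Trac are not analysed here. Pax7, Clec9a, Xcr1, Flt3, Zbtb46, Ccr7, Itgae, Batf3, Cd209a, Siglech, Adgre1, Plac8, Cd28, Mmp8, H2-D1, Cd53, Coro1a, C1qa, C1qb, C1qc, Cd40 and Rfx5, and the count of markers with the highest libraries of Cd74, were added after their values were seen. Promoter letters were searched on both strands in RefSeq promoters of GRCm38.p6.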

Additional observations from a re-analysis of the deposited data

How the results depend on the processing

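Of 170 values of the 10 class II genes, from 17 alternatives, 146 kept their sign and stayed uncalled, 21 changed sign and 3 became calls, all of H2-DMa as lower: without NC3 (-0.94), in DESeq2 (-0.70) and with median-of-ratios scaling (-0.65). The count of members called lower was therefore 1 with median-of-ratios scaling and 1 in DESeq2, and 0 to 1 when a library was left out; 0 were called higher throughout, and the lowest adjusted p was 0.455. H2-Eb1 turned to -0.05 with median-of-ratios scaling, Ciita to -0.075 in edgeR (-0.11 with no filter) and -0.12 in DESeq2, and H2-Oa to 0.17 with a pseudocount of 0.1 RPM. When each library was left out in turn, log2 fold changes ran from -1.11 to 0.05 for H2-Aa, -1.16 to 0.14 for H2-Ab1, -0.69 to 0.81 for H2-Eb1, -0.81 to 0.058 for Cd74, -0.23 to 1.40 for Ciita, -0.49 to 1.41 for H2-DMb1, -0.94 to 0.20 for H2-DMb2, -0.67 to 0.74 for H2-Oa, -0.94 to -0.24 for H2-DMa and 0.28 to 1.14 for H2-Ob, and the members with groups apart numbered 0 to 3.

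Pathway genes called higher numbered 5 with quantile normalization, 0 with a prior that follows the mean and 2 to 5 with a library left out. Those called lower numbered 1 with a pseudocount of 0.1 RPM, with the filter at 1 RPM and with that prior, 3 and 6 in edgeR with and without a filter, 9 in DESeq2 and 0 to 5 with a library left out. Over all genes, limma called 615 (343 higher, 272 lower), edgeR without a filter 1049 (407 and 642), edgeR with a filter 802 (294 and 508), DESeq2 1304 (519 and 785, 29 after adjustment), and limma with quantile normalization 693 (336 and 357); with a library left out the count ran from 376 without HC2 and 385 without HC1 to 1205 without NC2 and 1990 without NC1.

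Groups share replicate numbers. The deviations of same-numbered libraries correlated at -0.35 for the first number, 0.50 for the second and -0.04 for the third. Pairs with different numbers ran from -0.42 (NC2 with HC3) to 0.45 (NC2 with HC1). So few values of mixed sign cannot decide whether same-numbered libraries were paired. With the replicate number as a block, 0 members were called, H2-Eb1 turned to -0.26, 1 pathway gene was called lower, and 598 genes were called in all. The value of H2-Oa in NC2 rests on 3 reads, and that of H2-Ob in NC3 on 18.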
